A study of Mus musculus with 16 samples.

Results

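The comparison was between cultured mouse alveolar macrophages that started from pooled lung lavage and those that started from the lavage of 1 mouse. It covers 7 of the 16 libraries of the series. Of these, 4 are pool cultures, namely passages 8 and 13 of lavage pool 1 and passages 5 and 10 of lavage pool 2. The other 3 are cultures named mexAM from mice 1, 2 and 4. The members were chosen by their labels alone, with no measured value. The cells of all 7 libraries came from wild-type C57BL/6 mice, and the labels call both kinds of culture ex vivo cultured alveolar macrophages. For the mexAM cultures the passage, for the pools the number of mice, and for all cultures the age of the mice and the medium were not given in the sources used here. Names deposited with the pool libraries hold the word Try and a number, and whether this marks a separate run was not given either. Pooling, passage number, time in culture and any such run therefore cannot be told apart between the groups. The remaining 9 libraries hold lung lavage cells (BALF), bone marrow derived macrophages (BMDM) and peritoneal lavage cells (PLF) of mice 1, 2 and 4 and serve here to estimate the spread between replicates. The passages of a pool come from the same cells, so their counts were summed, which gave 2 pools against 3 mice.

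Alveolar macrophages are the resident phagocytes of the air spaces. They clear inhaled particles and surplus surfactant, their identity depends on the cytokine GM-CSF, on TGF-beta and on the transcription factor PPAR-gamma, and in the lung they maintain themselves by dividing in place. A macrophage culture that is passaged has to divide. Dividing cells copy their DNA with the MCM helicase, DNA polymerases and nucleotide synthesis enzymes, and then separate the copies with the kinase CDK1, kinetochore proteins, spindle motors and the cytokinesis machinery. The mitotic genes are read mostly late in the cell cycle, so their level in a culture follows the share of cells that are near division.

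Each mexAM library held 1721856 to 2427996 counts in genes. The summed pools held 2528457 and 3712470, of which passage 13 gave 58.95% of pool 1 and passage 10 gave 77.7% of pool 2. Reads outside genes took 14.2% ± 1.16 (SD, n = 3) of the mexAM reads and 11.7% and 10.6% of the reads of the pools. Mitochondrial ribosomal RNA took 5.81%, 6.80% and 5.91% of the gene counts of the mice and 10.4% and 9.50% of those of the pools, and the other mitochondrial transcripts took 4.54% ± 1.22 (SD, n = 3) and 4.60% ± 0.955 (SD, n = 2). In an exact two-sided permutation test the shares outside genes and of mitochondrial ribosomal RNA gave p = 0.2 each, the smallest that 3 mice and 2 pools allow, and that of the other mitochondrial transcripts p = 1. Values below are in counts in genes scaled to a common total (CPM, the usual unit of normalised counts), with totals scaled by the trimmed mean method of edgeR. The part of the shift in mitochondrial ribosomal RNA in the results was not tested, but without the mitochondrial genes and the RNAs Gm42418 and Gm26917, left out together, the comparison gave 74 calls, 72 of them among the 74 reported below.

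The labelled cell type was checked on its defining genes. Siglecf, an alveolar macrophage lectin, was at 435 to 558 CPM in the mexAM libraries and 351 to 715 CPM in the pool libraries. Car4, a carbonic anhydrase of these cells, was at 442 to 699 CPM and 446 to 995 CPM, and Chil3, a chitinase-like secreted protein, at 2094 to 3348 CPM and 1700 to 2829 CPM. The groups overlapped for all 3 genes. Of the 36 alveolar macrophage genes that could be tested, edgeR called 0 in either direction (0.519% of all genes higher and 0.179% lower), 1 was higher and 3 were lower at an unadjusted p under 0.05 (7.89% and 6.21% of all genes), and DESeq2 called 1 higher (0.952%). Their median log2 difference was 0.06, beside 0 for all genes. Among the lists of other cell types, those of lymphocytes were near 0. The 17 T and NK cell genes, 13 of them at 0 in all 7 libraries, summed to 0.493 to 1.73 CPM in the mexAM libraries and 0.654 to 3.80 CPM in the pool libraries, and the 15 B cell genes to 2.47 to 5.20 CPM and 2.05 to 16.5 CPM. Gata6, the defining factor of peritoneal macrophages, was listed at 0 in all 7. Other lists were not near 0. The neutrophil list summed to 338 to 807 CPM in mexAM and 311 to 505 CPM in the pool libraries, mostly S100a8 and Cxcr2, against a mean of 3560 CPM in BMDM. The monocyte and BMDM list summed to 409.9 to 555 CPM and 359.8 to 497 CPM, against 18492 CPM in BMDM. The peritoneal macrophage list summed to 483 to 566 CPM and 72.0 to 474 CPM, nearly all of it Cd93, and its groups did not overlap. The list of fibroblasts, mesothelium and endothelium summed to 90.3 to 406 CPM and 225 to 235 CPM, nearly all of it Krt19, which is also on the alveolar macrophage list, and the dendritic cell list to 128 to 218 CPM and 139.9 to 192 CPM. The part of these genes in the results was not tested, and edgeR called 0 of their tested members.

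Few genes were called between the pool and the mexAM cultures, and genes of mitosis were among those called higher. With 2 pools and 3 mice, genes that were not called may still differ. By the quasi-likelihood test of edgeR at a Benjamini-Hochberg adjusted p under 0.05, 74 of 10602 genes were called (0.698%). Of these, 55 were higher in the pools (0.519%) and 19 were lower (0.179%). At an unadjusted p under 0.05 there were 1494 (14.1%). A fold change of at least 2 was reached by 72 of the 74. In 67 of the 74, all 4 pool libraries lay beyond all 3 mexAM libraries, an arrangement found for 14.6% of all genes tested. With the mouse number as a block over the libraries of mice, 135 genes were called (1.27%), 107 higher (1.01%) and 28 lower (0.264%), and all 74 remained. DESeq2 called 177 of 10189 (1.74%), 97 higher (0.952%) and 80 lower (0.785%), and 70 of the 74 remained. The count rests on single replicates: it was 9 without pool 1, 6 without pool 2, 28 without mexAM of mouse 1 and 48 without that of mouse 4, although all 74 kept their direction without either pool. The calls also rest on the spread of the other cell types. With the 5 columns of the comparison alone, 27 of 9400 genes were called, and 21 of the 74 remained. Across the genes tested in the main fit the typical difference was small, with a median absolute log2 fold change of 0.30 beside a median standard error of 0.30.

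**Figure D1:**
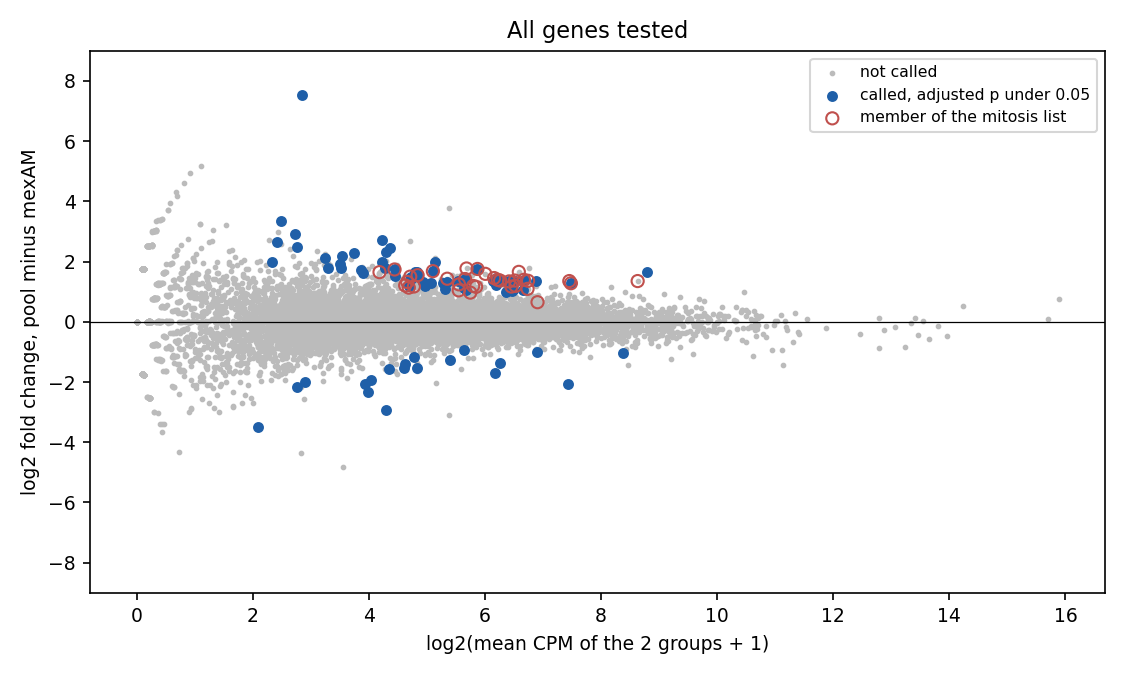
Every gene tested is drawn as a point, with the log2 of the mean CPM of both groups (plus 1) on the horizontal axis and the log2 fold change of pool over mexAM cultures on the vertical axis. Filled blue points are the 74 genes called, and open red circles are the 34 tested members of the mitosis list, which all lie above 0.

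Genes of mitosis were higher in the pool cultures as a group. Of 34 tested genes of the mitosis list, 10 were called higher and 0 lower, against 0.519% and 0.179% of all genes. All 34 had a positive log2 fold change, against 49.1% of all genes, and all 34 were higher at an unadjusted p under 0.05, against 7.89% of all genes. Their median log2 fold change was 1.36, against 0 for all genes. In 20 of the 34, all 4 pool libraries lay above all 3 mexAM libraries, against 6.87% of all genes. Summed over the list, the level was 1729, 1155 and 1567 CPM in the mexAM cultures of mice 1, 2 and 4. In pool 1 it was 2483 CPM at passage 8 and 4215 CPM at passage 13. In pool 2 it was 2176 CPM at passage 5 and 4323 CPM at passage 10. The later passage of each pool was thus far above every mexAM culture, and the earlier passage above it by a smaller margin. Lung lavage cells gave a mean of 600.4 CPM, BMDM 542 CPM and PLF 458.5 CPM. In bulk RNA, more dividing cells and more of this RNA per cell cannot be told apart.

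The excess held for both later passages and was smaller in the earlier ones. Against the highest of the 3 mexAM libraries, 34 of 34 genes were higher in pool 1 at passage 13 and 34 of 34 in pool 2 at passage 10, where 29.2% and 27.0% of all genes were. At passage 8 of pool 1 the count was 27 of 34 (25.9% of all genes), and at passage 5 of pool 2 it was 24 of 34 (30.6% of all genes). Fitted with the earlier passages alone, the median of the list was 0.61 and 0 genes of it were called by edgeR (0.0574% of all genes higher). Fitted with the later passages alone, the median was 1.52 and 15 were called (1.13% of all genes higher). When the passages of a pool were thinned to equal depth, the median was 1.16 and 1 gene was called (0.151%), and without pool 1 or without pool 2 the median was 1.41 or 1.30 with 1 call each (0.0447% in both). Leaving out the mexAM culture of mouse 1, 2 or 4 gave 2 calls each (0.171%, 0.663% and 0.246%). The difference between passages was not tested here. With the mouse block 19 genes of the list were called, all higher (1.01% of all genes).

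**Figure D2:**
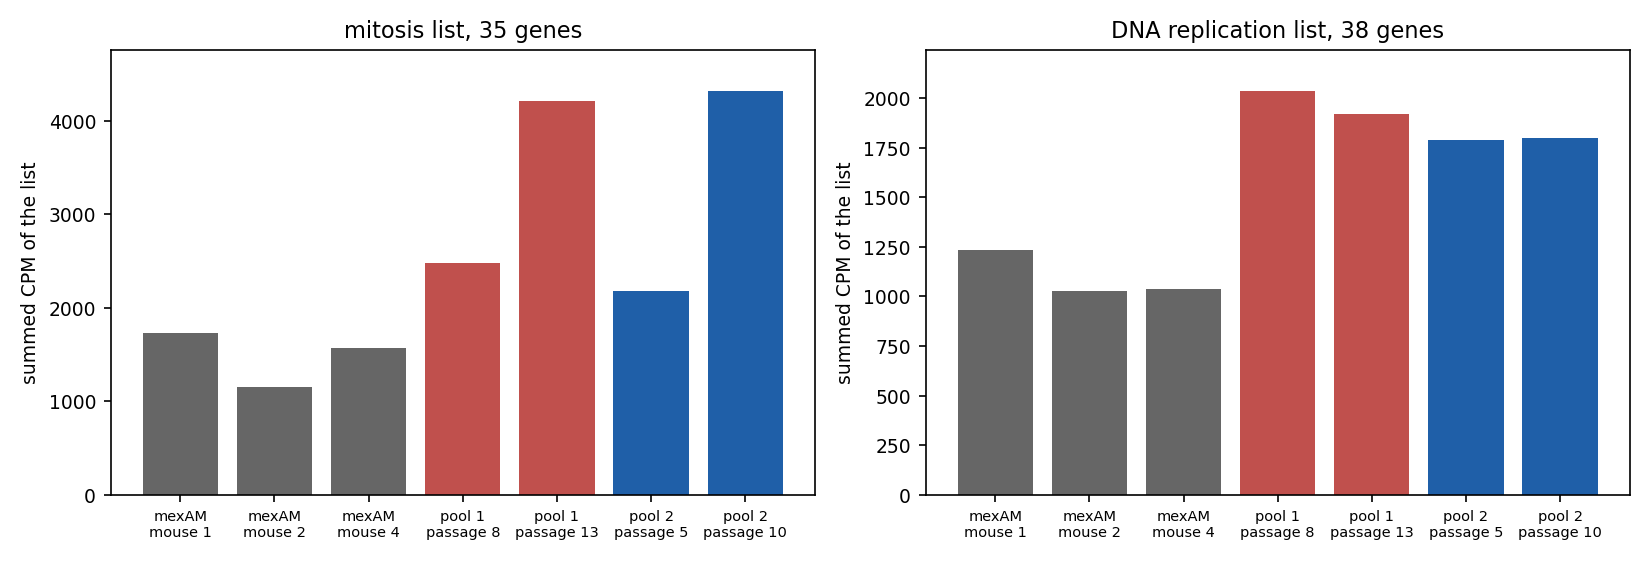
Bars give the summed CPM of the mitosis list (left, 35 genes) and of the DNA replication list (right, 38 genes) in each of the 7 culture libraries, grey for mexAM, red for pool 1 and blue for pool 2. The mitosis sum of the later passages (4215 and 4323 CPM) is above that of the earlier ones (2483 and 2176 CPM), while the DNA replication sum lies between 1790 and 2037 CPM in all 4 pool libraries.

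The promoters of 3 called mitosis genes are shown because cell cycle genes of this kind are known for short promoter elements. Each sequence is the 250 bases before the RefSeq start of the gene in GRCm38.p6, 5' to 3' on the gene's own strand, with matches to the searched motifs in capitals. The motifs were TTTGAA (the cell cycle homology region), CCAAT (the box bound by NF-Y) and the E2F-type words GCGCGAAA and GCGGGAAA, on both strands, and the matches printed do not overlap. The Cdk1 window is at chr10:69352913-69353162 on the minus strand, the Kif11 window at chr19:37376132-37376381 on the plus strand, and the Cenpa window at chr5:30666636-30666885 on the plus strand.
Cdk1: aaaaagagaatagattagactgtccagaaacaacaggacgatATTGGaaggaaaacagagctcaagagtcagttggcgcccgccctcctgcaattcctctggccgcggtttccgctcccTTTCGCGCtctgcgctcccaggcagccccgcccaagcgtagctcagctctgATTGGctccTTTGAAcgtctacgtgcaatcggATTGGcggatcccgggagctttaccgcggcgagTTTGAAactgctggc
Kif11: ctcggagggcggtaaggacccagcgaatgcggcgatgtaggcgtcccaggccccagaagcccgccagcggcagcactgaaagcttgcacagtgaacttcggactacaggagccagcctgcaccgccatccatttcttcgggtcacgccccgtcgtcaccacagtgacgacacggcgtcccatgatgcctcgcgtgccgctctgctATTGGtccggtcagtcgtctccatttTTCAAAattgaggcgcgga
Cenpa: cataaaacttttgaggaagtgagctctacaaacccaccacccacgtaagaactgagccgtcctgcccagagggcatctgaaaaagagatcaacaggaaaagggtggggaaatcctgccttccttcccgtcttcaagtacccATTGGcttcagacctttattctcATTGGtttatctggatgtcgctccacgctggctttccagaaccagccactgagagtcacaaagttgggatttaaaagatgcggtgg
The Cdk1 window holds all 3 kinds of motif, the Kif11 window a CCAAT box and a TTTGAA word, and the Cenpa window CCAAT boxes only. The windows of Anln and Mad2l1, which were called too, hold none of these letters. Of the 34 tested mitosis genes, 30 had a window in the RefSeq table, and 80.0% of those hold CCAAT, against 36.3% of the 8195 tested genes with a window and 34.5% of all 27025 windows. TTTGAA was in 26.7% of the mitosis windows, against 10.6% and 16.3%. The E2F-type words were in 3.33% of the mitosis windows and 19.4% of the 31 DNA replication windows, against 2.40% of tested genes. These are matches of letters and were not tested for binding.

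Among the genes that build and read the kinetochore, Cenpa, the histone H3 variant that marks centromeres (chr5:30666777-30674830 in GRCm38), had a low adjusted p and a large change. Its level was 23.1, 25.7 and 29.7 CPM in mexAM of mice 1, 2 and 4, then 31.8 CPM (passage 8) and 119 CPM (passage 13) in pool 1, and 62.1 CPM (passage 5) and 102 CPM (passage 10) in pool 2. The log2 fold change was 1.75 ± 0.21 (SE, edgeR adjusted p = 0.001413). Cenpa was named by a rule that required all 4 pool libraries to lie above all mexAM libraries. Passage 8 did so only just, and with the earlier passages alone the log2 fold change was 0.81 (edgeR adjusted p = 0.231). Mad2l1, a sensor of unattached kinetochores, was at 44.5, 36.0 and 46.1 CPM in mexAM and at 74.3, 120, 127 and 114 CPM in the pool libraries in the same order. Its log2 fold change was 1.37 ± 0.28 (SE, edgeR adjusted p = 0.03497), and here passage 5 of pool 2 was as high as the later passages. Sgo2a, a protector of centromeric cohesion that is not on the list, rose from 13.3, 13.8 and 14.5 CPM to 50.2, 49.1, 22.8 and 70.7 CPM. Its log2 fold change was 1.98 ± 0.34 (SE, edgeR adjusted p = 0.01235), the mexAM cultures lay close together, and passage 5 was the lowest pool library. Sgo2a overlaps Kctd18 on the other strand, which was at 8.65 CPM in mexAM and 9.45 CPM in the pools.

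Among the called spindle genes were the motor Kif11 and the regulators Tpx2 and Tacc3. Kif11, the kinesin that pushes spindle poles apart (chr19:37376403-37421859), was at 20.2, 12.3 and 15.2 CPM in mexAM and at 30.9, 58.9, 25.4 and 61.8 CPM in the pool libraries, a log2 fold change of 1.68 ± 0.36 (SE, edgeR adjusted p = 0.03684). Tpx2, a spindle assembly factor and activator of Aurora A, was at 48.5, 43.4 and 51.2 CPM against 76.2, 142, 65.9 and 143 CPM. Tacc3, which stabilises spindle microtubules, was at 51.4, 26.6 and 40.3 CPM against 75.2, 120, 72.3 and 105 CPM. All 3 genes were picked by a rule that required every pool library to lie above every mexAM library. In each of them the later passages were the upper pair. Tpx2 and Tacc3 gave the same log2 fold change of 1.34 ± 0.30 (SE), with edgeR adjusted p-values of 0.04515 and 0.04105. Of 25 tested genes with names that begin with Kif, 2 were called higher and 0 lower (0.519% and 0.179% of all genes). The group was formed after the values were seen and includes Kif1bp, which is not itself a kinesin. The log2 fold changes of the 25 were positive in 19 (49.1% of all genes) and negative in 6.

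The kinase Cdk1, which drives entry into mitosis (chr10:69335146-69352938), was at 51.4, 43.9 and 55.9 CPM in mexAM and at 73.3, 168, 105 and 138 CPM in the pool libraries. The log2 fold change was 1.37 ± 0.30 (SE, edgeR adjusted p = 0.04271). Its partners on the list were not called: Ccna2 had a log2 fold change of 1.66 (adjusted p = 0.08597), Ccnb1 of 1.24 (0.1406) and Ccnb2 of 1.19 (0.0767), all at positive values. For cytokinesis, Anln, an actin-binding scaffold of the contractile ring, was at 21.4, 25.7 and 33.2 CPM against 48.2, 84.4, 46.9 and 82.3 CPM. Ect2, which activates RhoA at the cell equator, was at 6.93, 7.40 and 13.7 CPM against 15.4, 47.8, 17.8 and 32.8 CPM. Both were called, with log2 fold changes of 1.42 ± 0.32 and 1.74 ± 0.34 (SE) and edgeR adjusted p-values of 0.04457 and 0.02456. The proliferation marker Mki67 was called at 1.28 ± 0.27 (SE, edgeR adjusted p = 0.03554), although its groups overlapped. It was at 114, 95.7 and 101 CPM in mexAM and at 192, 262, 83.7 and 320 CPM in the pool libraries, so passage 5 of pool 2 was below all 3 mice.

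**Figure D3:**
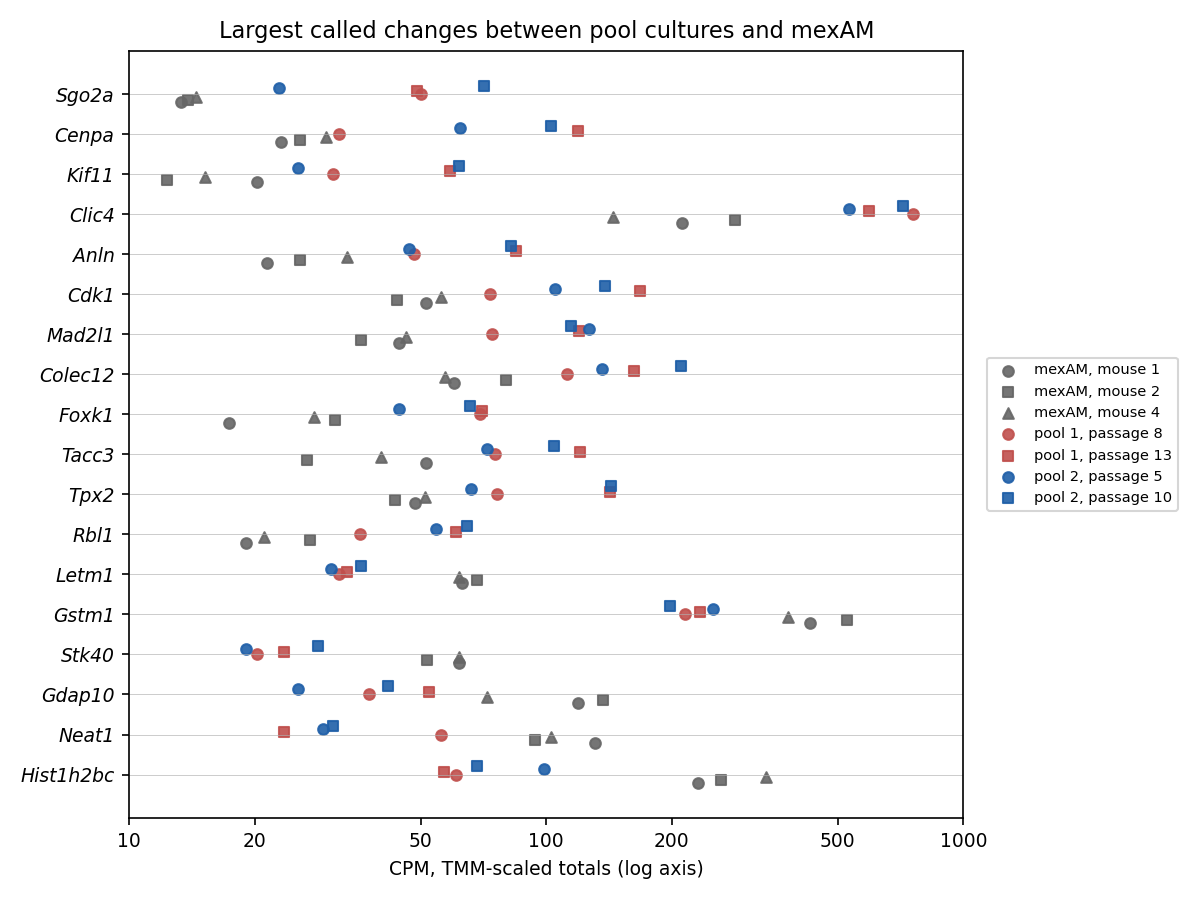
CPM of the 18 called genes that the rule for named genes picked, 12 higher and 6 lower in the pools, on a log axis, with 1 symbol for each of the 7 libraries. In every row the 4 pool symbols (red and blue) and the 3 mexAM symbols (grey) do not overlap, which the rule required.

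DNA replication genes had higher values in the pools too, with smaller differences, and edgeR called 0 of the 38 tested. Of these, 35 had a positive log2 fold change (49.1% of all genes), 19 were higher and 0 lower at an unadjusted p under 0.05 (7.89% and 6.21% of all genes), and DESeq2 called 2 higher (0.952% of all genes). The median log2 fold change was 0.74. All 4 pool libraries lay above all mexAM libraries for 24 of the 38 (6.87% of all genes). The summed level was 1234, 1029 and 1035 CPM in mexAM and 2037, 1920, 1790 and 1800 CPM in the pool libraries, in the order given above. The earlier and later passages were thus at similar levels, and the median was 0.79 with the earlier passages alone and 0.66 with the later alone. Fen1, the flap endonuclease of lagging strands, was at 8.66, 28.1 and 31.3 CPM in mexAM and at 73.3, 77.2, 54.5 and 59.5 CPM in the pool libraries, with a log2 fold change of 1.53 ± 0.36 (SE, edgeR adjusted p = 0.0594). Mcm4, a subunit of the replicative helicase, was at 25.4, 63.6 and 58.2 CPM against 93.6, 138, 79.9 and 115 CPM. Rrm1, the large subunit of ribonucleotide reductase, was at 54.8, 58.2 and 55.9 CPM against 85.8, 120, 73.6 and 143 CPM. The mean differences of Mcm4 and Rrm1 were 1.20 and 1.06 in log2, with edgeR adjusted p-values of 0.0767 and 0.06748, so all 3 stayed above the threshold of 0.05. Pcna, the sliding clamp, differed by less than these 3, from 113 to 131 CPM in mexAM to 144 to 186 CPM in the pool libraries.

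Further called genes outside both lists, named here after their values were seen, also act in cell division. Plk4, the kinase that starts centriole duplication, was at 5.20, 8.39 and 7.42 CPM in mexAM and at 25.1, 28.1, 21.6 and 32.1 CPM in the pool libraries, a log2 fold change of 2.00 ± 0.28 (SE, edgeR adjusted p = 0.002419). For Plk4 the earlier passages were about as high as the later ones. Nek2, a centrosome kinase, rose by 2.32 in log2, Cep55, a factor of the final cut of cytokinesis, by 2.44, and E2f8, a repressor of E2F targets, by 2.30. Dbf4, which activates the kinase that fires replication origins, rose by 1.07, and Hells, a chromatin remodeller, by 1.29. With the earlier passages alone none of these 6 was called by edgeR. Plk4 was then at 1.72 (adjusted p = 0.05256), Nek2 at 1.099 (0.3672), Cep55 at 1.92 (0.1499), E2f8 at 1.25 (0.4579), Dbf4 at 0.82 (0.1695) and Hells at 1.08 (0.1716). Of the 25 tested genes of the list of cell cycle inhibitors and p53 targets, 1 was called higher and 0 lower (0.519% and 0.179% of all genes). This was the pocket protein Rbl1 (p107). It was at 19.1, 27.1 and 21.1 CPM in mexAM and at 35.7, 60.9, 54.5 and 64.6 CPM in the pool libraries. Its log2 fold change was 1.33 ± 0.25 (SE, edgeR adjusted p = 0.0216). Cdkn2a, which encodes the cell cycle inhibitors p16 and p19Arf, went the other way without passing the test. It was at 60.6, 102 and 50.4 CPM in mexAM and at 25.1, 14.4, 46.9 and 24.3 CPM in the pool libraries, a log2 fold change of -1.55 ± 0.39 (SE, edgeR adjusted p = 0.06708), and the groups did not overlap. DESeq2 called it, with an adjusted p of 0.01532.

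Outside cell division, a few genes of the cell surface and immune defence were higher in the pools. Clic4, a chloride intracellular channel protein (chr4:135213969-135272814), was at 212, 284 and 144 CPM in mexAM and at 759, 593, 533 and 715 CPM in the pool libraries. The log2 fold change was 1.65 ± 0.23 (SE, edgeR adjusted p = 0.002419). The pool libraries were alike at both passages, at 1.60 with the earlier passages alone and 1.58 with the later, and were closer to the mean of 1326 CPM in lung lavage cells than the mexAM libraries were. Colec12, a scavenger receptor with a collagen-like stalk, was at 60.0, 79.9 and 57.1 CPM against 112, 162, 136 and 210 CPM, a log2 fold change of 1.36 ± 0.24 (SE, edgeR adjusted p = 0.01573). It was the only called gene of 24 tested scavenger and uptake receptors (0.519% of all genes higher and 0.179% lower). Cfb, complement factor B, was at 16.7, 13.3 and 9.77 CPM against 57.9, 39.3, 43.1 and 34.9 CPM, with a log2 fold change of 1.66 ± 0.37 (SE, edgeR adjusted p = 0.04271). Lung lavage cells held a mean of 73.4 CPM of Cfb.

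Itgam, the alpha chain of complement receptor 3 and a marker of macrophages outside the alveoli, was low in all 7 cultures and uneven among the pool libraries. It was at 4.04, 4.44 and 5.08 CPM in mexAM, at 11.6 CPM in pool 1 at passage 8, 73.9 CPM at passage 13, and 10.1 and 13.7 CPM in pool 2 at passages 5 and 10. The log2 fold change was 2.71 ± 0.45 (SE, edgeR adjusted p = 0.01235). All 4 pool libraries were above all mexAM libraries, but 1 library, passage 13 of pool 1, set the size: without pool 1 the log2 fold change was 1.48 (adjusted p = 0.1805). The levels stayed far below the means of 779.5 CPM in BMDM and 1875 CPM in PLF. Itgam was the only called gene among 22 pan-macrophage genes (0.519% of all genes higher and 0.179% lower). With Cfb it made up the 2 calls among 15 tested complement genes, beside the same shares of all genes. Foxk1, a transcription factor, was called at 1.35 ± 0.29 (SE, edgeR adjusted p = 0.03743), at 17.3, 31.1 and 27.7 CPM in mexAM and 69.5, 70.0, 44.4 and 65.6 CPM in the pool libraries.

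The miRNA gene Gm23935, annotated at chr16:11144125-11144181, was called in the main comparison and in all 18 alternatives. It had 0 counts in all 3 mexAM libraries and was at 12.5, 12.4, 33.0 and 6.83 CPM in the pool libraries, with 1.45 CPM in BMDM and 10.7 CPM in lung lavage cells on average. Against a floor of 3 counts over the mexAM group, it was at least 25.9-fold higher in the pools (edgeR adjusted p = 0.002187). The gene lies on the other strand of Zc3h7a, which was at 50.2 CPM in mexAM and 43.5 CPM in the pools, so these reads name a position and not a mature miRNA.

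The 19 genes that were lower in the pools showed no common process among the lists. Hist1h2bc, a histone H2B gene (chr13:23684199-23692908), was at 232, 262 and 336 CPM in mexAM and at 60.8, 56.9, 98.9 and 68.3 CPM in the pool libraries, a log2 fold change of -2.05 ± 0.32 (SE, edgeR adjusted p = 0.007412). Every pool library was under every mexAM library, at both passages, which the rule that named this gene required. Lung lavage cells were between, at a mean of 102 CPM. Of 18 tested histone genes, Hist1h2bc was the only one called (0.519% of all genes higher and 0.179% lower). The group was formed after the values were seen and holds variant genes such as H2afx and H2afz beside those of the histone clusters. In it, 9 genes were at positive and 9 at negative values (49.1% of all genes positive). Hist1h1c was at 930, 480 and 1068 CPM in mexAM and at 258, 394, 282 and 392 CPM in the pool libraries, and missed the threshold (log2 fold change -1.22, edgeR adjusted p = 0.1064). Hist1h1b and Hist1h1e pointed the other way, at 1.52 and 1.54 with adjusted p-values of 0.07387 and 0.1095.

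Neat1, the long non-coding RNA that scaffolds paraspeckles (chr19:5824708-5845478), was at 131, 93.7 and 102 CPM in mexAM and at 55.9, 23.6, 29.2 and 30.7 CPM in the pool libraries. The log2 fold change was -1.70 ± 0.28 (SE, edgeR adjusted p = 0.00875), and passage 8 of pool 1 was the highest pool library. Gdap10, a lincRNA gene, was at 119, 137 and 71.9 CPM against 37.6, 52.3, 25.4 and 41.7 CPM, a log2 fold change of -1.37 (edgeR adjusted p = 0.02456). It lies within Nampt on the same strand, whose own mean was 473 CPM in mexAM and 840 CPM in the pools, so reads of both could be shared. Stk40, a gene of the serine/threonine kinase family, was at 61.8, 51.8 and 61.8 CPM against 20.3, 23.6, 19.0 and 28.4 CPM (log2 fold change -1.26, edgeR adjusted p = 0.02456). The rule that named Neat1, Gdap10 and Stk40 required groups that do not overlap.

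The genes below, which were lower, belong to mitochondria and detoxification. Gstm1, a glutathione transferase, was at 429, 525 and 379 CPM in mexAM and at 215, 234, 251 and 198 CPM in the pool libraries (log2 fold change -1.03 ± 0.20 SE, edgeR adjusted p = 0.02456). It was the only called gene of 25 tested genes of the oxidative stress response (0.519% of all genes higher and 0.179% lower). Letm1, an ion exchanger of the inner mitochondrial membrane, was at 62.9, 68.1 and 61.8 CPM against 31.8, 33.4, 30.4 and 35.9 CPM (log2 fold change -0.93 ± 0.21 SE, edgeR adjusted p = 0.04271). Cpt2, which releases fatty acids from carnitine inside mitochondria, was at 33.5, 37.5 and 37.9 CPM against 25.1, 15.1, 12.7 and 14.01 CPM (log2 fold change -1.16 ± 0.25 SE, edgeR adjusted p = 0.03912). The groups did not overlap in these genes, which the naming rule required for Gstm1 and Letm1 but not for Cpt2. Passage 8 of pool 1 was the pool library nearest to the mice for Cpt2. Cpt2 was the only called gene of 25 tested genes of fatty acid oxidation, beside the same shares of all genes.

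Genes of lipid storage and of the respiratory chain leaned lower without single calls by edgeR. Of 26 tested PPAR-gamma target and lipid storage genes, edgeR called 0, with 0 higher and 6 lower at an unadjusted p under 0.05 (7.89% and 6.21% of all genes), and DESeq2 called 2 lower (0.785%). Their median log2 fold change was -0.25, and in 10 of them all 4 pool libraries lay below all mexAM libraries (7.69% of all genes). The summed level was 20970 ± 395 CPM (SD, n = 3) in mexAM and 17606 and 16523 CPM in the pools. Mgll, monoglyceride lipase, was at 941, 1028 and 1146 CPM in mexAM and at 770, 362, 847 and 366 CPM in the pool libraries (log2 fold change -1.06, edgeR adjusted p = 0.05582). Pnpla2, the first lipase of triglyceride breakdown, was at 167, 174 and 163 CPM against 92.6, 90.3, 85.0 and 87.5 CPM (log2 fold change -0.91, edgeR adjusted p = 0.1295). Mgll was lower mainly in the later passages, while Pnpla2 was equally low in all 4 pool libraries. Pparg itself did not differ beyond its spread, at 17.3, 134 and 63.3 CPM in mexAM and 55.9, 141, 105 and 118 CPM in the pool libraries (edgeR adjusted p = 0.6227). Of 44 tested nuclear-encoded subunits of the respiratory chain, 35 were at negative values with a median of -0.32, and edgeR and DESeq2 called 0 each, with 11 lower and 0 higher at an unadjusted p under 0.05 (6.21% and 7.89% of all genes). Their summed level was 8113, 9682 and 8898 CPM in mexAM and 7508, 7507, 10558 and 7186 CPM in the pool libraries, so passage 5 of pool 2 was above every mexAM library and the other 3 below. That median was -0.12 with the earlier passages alone and -0.36 with the later.

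**Figure D4:**
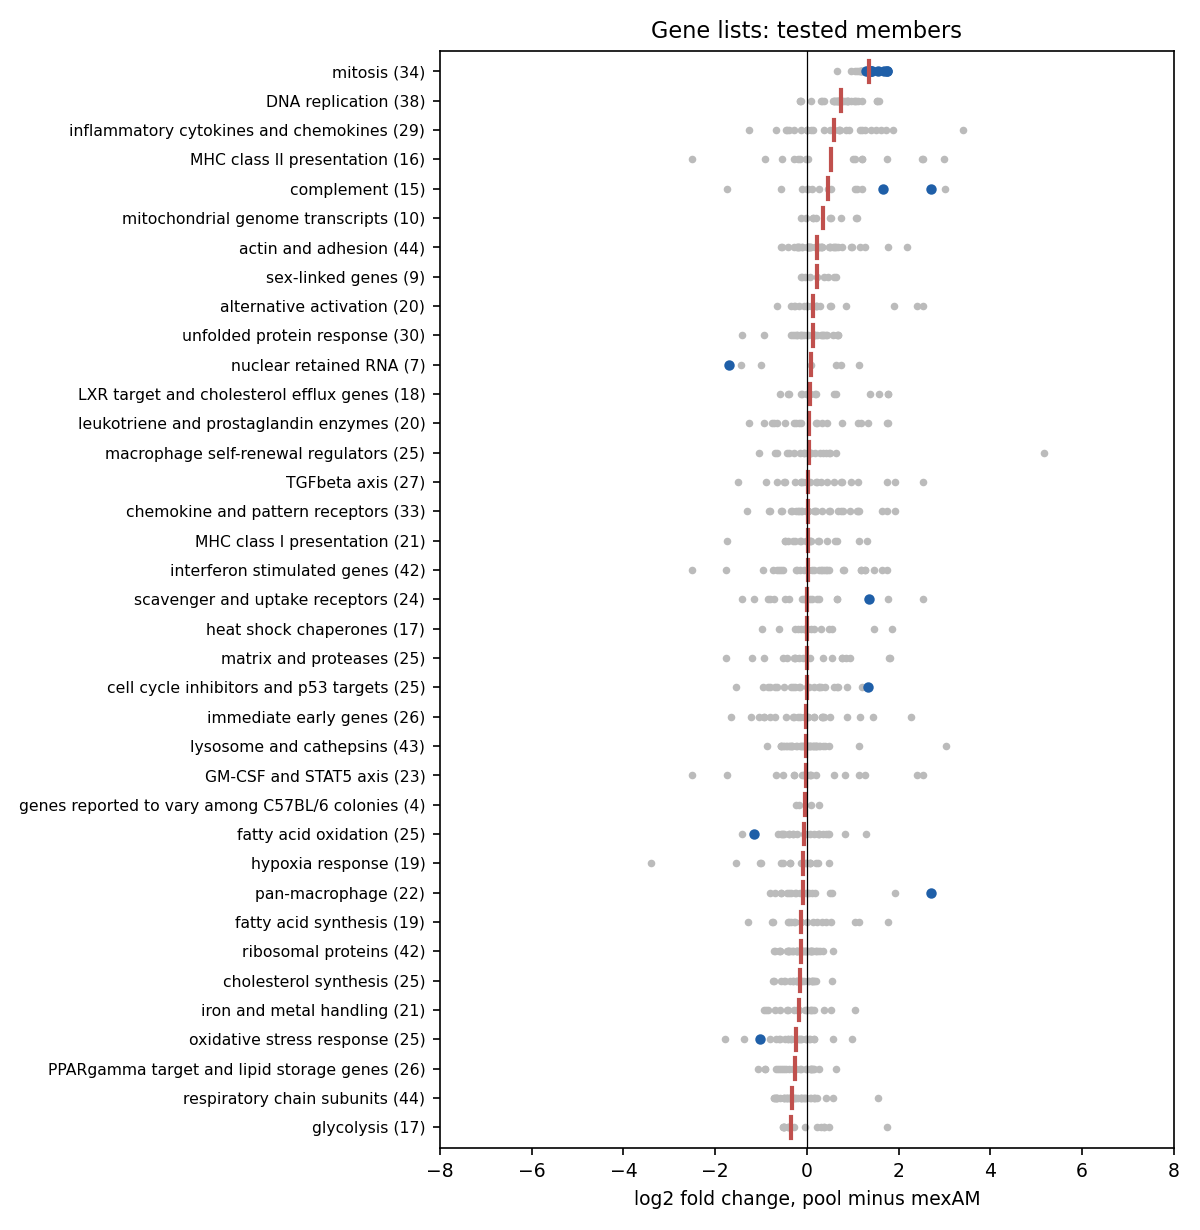
Each row is a gene list, with the number of tested members in brackets. Points are members placed by log2 fold change of pool over mexAM cultures, blue where called, and the red bar is the median, which is 1.36 for mitosis, 0.74 for DNA replication and -0.32 for the respiratory chain subunits.

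Across the 49 gene lists, 8 held a gene called by edgeR and 41 held none, although DESeq2 called genes in some of those 41. In 5 lists the called members were higher and in 3 lower, and 57 of the 74 called genes were in no list. Receptors and factors that maintain alveolar macrophages differed by less than their spread. Csf2rb, the shared signalling chain of the GM-CSF receptor, was at 494, 421 and 433 CPM in mexAM and at 552, 473, 350 and 372 CPM in the pool libraries (log2 fold change -0.04, edgeR adjusted p = 0.9783). Bhlhe41, a transcription factor of these cells, was at 684, 899 and 818 CPM against 830, 788, 879 and 829 CPM (log2 fold change 0.04 ± 0.19 SE, edgeR adjusted p = 0.9715). Tgfbr1 and Tgfbr2, the TGF-beta receptors, had log2 fold changes of 0.02 and 0.01, both of which turned negative under RLE size factors and DESeq2 (-0.01). Maf, a transcription factor that restrains division of macrophages, was low in all 7 cultures, at 10.1 to 33.1 CPM, and was not called. Marco, a scavenger receptor, varied from 363 to 1030 CPM in mexAM and from 97.4 to 1015 CPM in the pool libraries. Fabp1, a fatty acid binding protein, was at 2144, 1063 and 3241 CPM in mexAM and at 837, 1185, 427 and 1039 CPM in the pool libraries, with overlap (log2 fold change -1.14, edgeR adjusted p = 0.1284).

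The pools also differed from each other, and the mexAM cultures were uneven in some of the same genes and even in others. These genes were picked for the ratio between the pools and are given without a test. Csn2, which encodes beta-casein and is a known target of STAT5, was at 804 and 938 CPM in pool 1 and at 41.8 and 32.1 CPM in pool 2. In mexAM it was at 858, 516 and 132 CPM, so pool 1 matched mouse 1 and pool 2 was below every mouse. Lung lavage cells held a mean of 2.37 CPM. Cd93, a lectin-like receptor, was at 72.3 and 50.4 CPM in pool 1, 427 and 295 CPM in pool 2, and 553, 515 and 469 CPM in mexAM. Here pool 1 stood apart from the other 5 libraries, and Cd93 made up most of the peritoneal macrophage list, whose sum was 526 ± 41.5 CPM (SD, n = 3) in mexAM and 80.3 and 349 CPM in the pools. Msr1, scavenger receptor A, was at 17.4 and 7.20 CPM in pool 1 and 92.6 and 45.8 CPM in pool 2, with 75.1, 43.9 and 26.6 CPM in mexAM. Npy, which encodes neuropeptide Y, was at 15.4 and 35.3 CPM in pool 1 and 114 and 45.1 CPM in pool 2, above the 10.4, 4.93 and 5.47 CPM of mexAM (edgeR adjusted p = 0.07068).

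**Figure D5:**
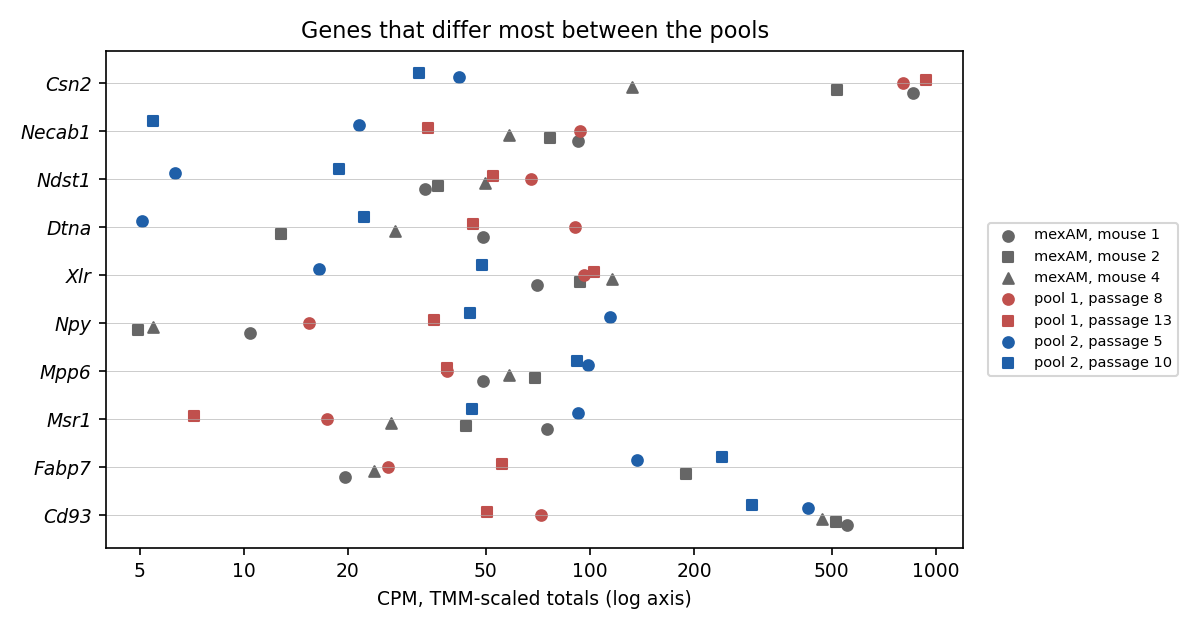
CPM on a log axis of the 10 genes picked for the ratio of pool 1 (red) to pool 2 (blue), with the mexAM libraries in grey. Csn2 is above 800 CPM in both passages of pool 1 and under 50 CPM in both of pool 2, and Cd93 has the opposite order.

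The mexAM cultures differed among themselves in some genes by more than the groups did. In genes picked for that spread, again without a test, Vcam1, an adhesion molecule, was at 96.4, 117 and 3.91 CPM in mice 1, 2 and 4 and at 17.4, 7.85, 15.2 and 2.73 CPM in the pool libraries. Fcgr2b, the inhibitory Fc receptor, was at 7.51, 0.493 and 69.6 CPM in mexAM and at 7.72, 55.6, 0 and 29.0 CPM in the pool libraries. Sdhd, a subunit of complex II, was at 1.16, 70.6 and 10.6 CPM in mexAM against 14.5, 109, 179 and 67.0 CPM. For Fcgr2b the cultures of single mice spanned the range of the pools but for its lowest end, and for Sdhd 2 of the 4 pool libraries lay above every mouse.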

How the data were processed

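RNA was measured by 3' end sequencing (QuantSeq, total RNA) in 16 libraries. The authors deposited raw read counts per Ensembl gene, 1 table per library, on GRCm38 (mm10) per the submitters' processing notes. Aligner, annotation, use of strand and collapsing by molecular identifiers were not given in the sources used here. A gene and an overlapping gene on the other strand may therefore share reads. The tests estimate the spread between replicates and do not cover such sharing. Of 74 called genes, 15 overlap another tested gene. GENCODE M21 named 47224 of 47643 identifiers, and 5 lines that name no gene were left out. In the 7 culture libraries the no-feature line took 10.6% to 15.5% of reads and the line of ambiguous reads 0.484% to 0.625%. With 827791 to 2884679 counts per culture library, 1 count was worth 0.347 to 1.21 CPM.

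Counts of 14 columns (4 groups of 3 mice and 2 summed pools) were fitted with edgeR 4.0.16 in R 4.3.3: filterByExpr, TMM scaling, robust quasi-likelihood with 9 residual degrees of freedom, contrast pool minus mexAM, Benjamini-Hochberg adjustment over 10602 genes. DESeq2 1.42.0 and other settings were alternatives, 18 in all. The script was tested on simulated data with changes seeded in genes at 10 CPM or more. Of the seeded changes, 37.7% were called at 2-fold and 97.3% at 4-fold, and 6.25% of the calls were false. No 2 of the 7 libraries agreed within sampling noise (chi-square per degree of freedom 5.09 to 20.3).

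Per the labels, a mouse number stands for 1 animal in all its cell types. Deviations of same-mouse libraries correlated at -0.113 to 0.195 (median -0.02, 18 pairs, 2 over 0.1). Pool numbers pair with no mouse, so the block covers libraries of mice only.

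Named genes were, up to 12 in each direction, called genes with the largest change, 50 CPM or more in the higher group, and no overlap between the libraries of the groups (6 met this downward), up to 4 called members of each list at 10 CPM or more, and 24 fixed macrophage genes, of which 1 is not reported here. Genes that differ most between pools or between mice were picked by ratio, 5 in each direction or in all. The lists (49) and the members were chosen with earlier results of these data known.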

Additional observations from a re-analysis of the deposited data

Results flagged for a closer look

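Within the 4 pool libraries, 96 values were checked for 1 library standing apart from the other 3 (Dixon's test at its 95% level), which chance gives in about 1 of 20 sets, and 5 were found. Itgam was at 73.94 CPM in pool 1 at passage 13, against 10.1 to 13.7 CPM in the other 3. The other 4 concern pool 2 at passage 5, the library with the fewest counts in genes (827791). The summed CPM of the respiratory chain subunits was 10557.5 there, against 7186 to 7508, so the lower values of these genes in the pools did not extend to this library. The sum of actin and adhesion genes was 46978.9 CPM, against 37100 to 38644, and that of T and NK cell genes 3.804 CPM, against 0.654 to 0.965. The T and NK cell sums rest on very few counts, as 1 count was worth 1.21 CPM in pool 2 at passage 5. The sum of sex-linked genes was 559.2 CPM, against 827 to 849. No cause was tested for any of these.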

How the results depend on the processing

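Of 74 genes called (55 higher, 19 lower), the count was 58 with library totals alone, 66 with RLE size factors and 74 without mitochondrial genes, Gm42418 and Gm26917, and 57, 66 and 72 of the 74 remained. It moved to 177 with DESeq2 (97 higher, 80 lower), 380 without a filter on low counts (270 and 110), 120 with at least 10 CPM in either group (40 lower), 27 with the 5 columns of the comparison alone (22 and 5), 205 with passages not summed (118 and 87), 11 with the earlier passage of each pool (6 and 5), 188 with the later (120 and 68) and 27 with passages thinned to equal depth (16 and 11). With pool 2 from passage 10 alone, a setting chosen after seeing the data, it was 113 (32 lower). With the mouse as replicate block it was 135 (107 higher). Leaving out 1 replicate gave 6 to 99 calls, 5 to 70 higher and 1 to 29 lower. The block removed no call. With the earlier passages, 7 of the 74 remained called and 73 kept their direction.

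Named genes (44) were recomputed under the alternatives, giving 790 values. Of these, 601 kept their direction and side of the threshold, 140 lost the call, 9 gained one (Fabp1 and Cdkn2a) and 40 in 11 genes changed sign, in genes that were not called. The fitted log2 fold changes of these genes follow. Leaving out 1 replicate gave ranges of -0.32 to 0.34 for Siglecf, -0.16 to 0.31 for Car4, -0.28 to 0.069 for Itgax, -0.21 to 0.023 for Adgre1, -0.38 to 0.54 for Csf2ra, -0.30 to 0.18 for Csf2rb, -0.16 to 0.25 for Tgfbr1, -0.36 to 0.36 for Tgfbr2 and -0.077 to 0.097 for Bhlhe41. With the earlier passage alone, Itgax was at 0.40, Marco at 0.13, Fabp4 at 0.19, Csf2ra at 0.61, Csf2rb at 0.010, Tgfbr1 at -0.37 and Tgfbr2 at -0.16. With the later passage alone, Car4 was at -0.11 and Bhlhe41 at -0.024. With passages not summed, Itgax was at 0.13, Csf2ra at 0.14, Tgfbr1 at -0.056 and Tgfbr2 at -0.015. With passages thinned, Itgax was at 0.11, Csf2ra at 0.11, Tgfbr1 at -0.10 and Tgfbr2 at -0.096. DESeq2 gave -0.0077 for Tgfbr1 and -0.011 for Tgfbr2, RLE size factors -0.0076 and -0.012, and the filter at 10 CPM -0.0027 for Tgfbr2. Car4 was at -0.0040 with pool 2 from passage 10 alone. The causes were not tested, except that fewer genes tested or fewer samples follow from the construction of the settings that leave some out.

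Depth limits the earlier passages most: 1 count was worth 1.21 CPM in pool 2 at passage 5 and 0.347 CPM at passage 10, so genes under a few CPM are coarse there. With 2 pools, the exact two-sided permutation test used here over pools and mice cannot give p under 0.2.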

Other observations

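The later passages of the pools resembled each other more than they resembled the earlier passages of their own pool. Over genes, the rank correlation of counts was 0.98 between pool 1 at passage 13 and pool 2 at passage 10, and 0.96 and 0.95 between the passages of pool 1 and of pool 2. The mexAM cultures of different mice gave 0.951 to 0.969, and pool with mexAM libraries 0.919 to 0.961. These are descriptions over genes, which are not replicates, and the libraries compared differ in depth.

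Some further genes were uneven between the groups without being called by edgeR. Of 29 tested inflammatory cytokine and chemokine genes, edgeR called 0, with 6 higher and 0 lower at an unadjusted p under 0.05 (7.89% and 6.21% of all genes), and DESeq2 called 1 higher (0.952% of all genes). The median log2 fold change of the 29 was 0.59, with 19 at positive (49.1% of all genes) and 7 at negative values. The summed level of the list went the other way. It was 20438.5 ± 1821.5 CPM (SD, n = 3) in mexAM and 15641 and 16867 CPM in the pools, lower in both. By library it was 19295, 22539 and 19481 CPM in mexAM, 17330 and 14379 CPM in pool 1, and 25950 and 14468 CPM in pool 2. Passage 5 of pool 2 was thus above every mexAM library. Tnfaip3, an inhibitor of NF-kappaB signalling, was at 4.04, 18.2 and 5.08 CPM in mexAM and at 4.82, 58.2, 13.9 and 35.2 CPM in the pool libraries, pool 1 first and the earlier passage first (edgeR adjusted p = 0.1028). Lif, a cytokine of the interleukin 6 family, was at 2.89, 13.3 and 8.60 CPM against 4.82, 38.6, 26.6 and 27.0 CPM (edgeR adjusted p = 0.1253). In both genes passage 8 of pool 1 lay within the mexAM range and the later passages above it. Acvrl1, a receptor of the TGF-beta family, was at 17.3, 21.7 and 19.9 CPM against 9.64, 3.93, 10.1 and 6.83 CPM, with no overlap (log2 fold change -1.50, edgeR adjusted p = 0.07486). Of the 27 tested genes of its list, the TGF-beta axis, edgeR called 0 (0.519% of all genes higher and 0.179% lower). The median log2 fold change of the list was 0.03, with 17 at positive (49.1% of all genes) and 9 at negative values. At an unadjusted p under 0.05, 2 were higher and 1 lower (7.89% and 6.21% of all genes). Ppargc1b, a coactivator of mitochondrial genes, was at 31.2, 22.7 and 37.5 CPM against 18.3, 11.8, 7.61 and 9.22 CPM (log2 fold change -1.41, edgeR adjusted p = 0.06048). Acsl4, which activates polyunsaturated fatty acids, was at 86.0, 112 and 104 CPM against 175, 189, 185 and 171 CPM (log2 fold change 0.82, edgeR adjusted p = 0.09851).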
